A study of Mus musculus with 17 samples.

Results

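Gene expression in the choroid plexus was compared between mice that had returned to plain water after dextran sodium sulfate (DSS) and mice after their first day of DSS. The comparison uses the 4 libraries labelled T5 and the 4 labelled T1, which make 8 of the 17 libraries in the series. T5 stands for 3 days of DSS followed by 2 days of water, and T1 for 1 day of DSS. Untreated controls (CTRL, n = 5) and mice after 3 days of DSS (T3, n = 4) entered the shared estimate of spread. All were C57BL/6 mice, and RNA came from the whole choroid plexus of the lateral ventricles. The labels give neither sex, age, hour of collection nor animals per sample, so p-values measure the spread between these samples, which may be technical in part. Since the tissue was sequenced in bulk, fewer cells of a type and less RNA per cell cannot be told apart. DSS is a sulfated polymer taken in drinking water that damages the lining of the colon, and T5 differs from T1 in length of exposure as well as in the return to water.

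The choroid plexus is a fold of vascular tissue in the brain ventricles that makes cerebrospinal fluid. Its capillaries are fenestrated and let plasma solutes pass, and the epithelium around them, joined by tight junctions, forms the barrier between blood and fluid. Ciliated epithelial cells, stromal fibroblasts, macrophages that present antigen and a circadian clock are also part of this tissue. Its identity was clear in every library used here: Ttr, which encodes the thyroid hormone carrier transthyretin and is the most typical transcript of this epithelium, had 54516 to 148900 CPM (counts per library, brought to one scale by TMM) in T1 and 89431 to 148240 in T5, and all 18 epithelial markers were tested.

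Library totals were 8875921 to 23555242 counts in T1 and 12477553 to 19928986 in T5. The sample titles carry running numbers, and T1 is split by them: replicate 1 has number 9, while replicates 2, 3 and 4 have 28, 29 and 30, and all T5 libraries lie from 23 to 26. After thinning to 8875921 counts, 21347, 24200, 25295 and 26356 genes were detected in T1 replicates 1 to 4 and 20312 to 21158 in T5 (8 measures compared; two-sided exact permutation p = 0.0286, the smallest that 4 against 4 allow, Benjamini-Hochberg 0.114). Long non-coding genes held 0.759, 0.926, 1.10 and 1.18% of the counts in T1 and 0.686 to 0.727% in T5, with the same p-values. Mitochondrially encoded genes held 3.37% in T1 replicate 1, 1.86 to 2.04% in T1 replicates 2 to 4 and 2.83 to 3.75% in T5 (exact permutation p = 0.0857, Benjamini-Hochberg 0.137). In each of these measures T1 replicate 1 was the T1 library nearest to T5. Markers of neurons, astrocytes and oligodendrocytes averaged 4.97 on the log2 CPM scale in T1 and 4.88 in T5 (exact permutation p = 0.914), and the libraries of both groups ranged widely (3.81 to 6.33 and 3.72 to 6.19).

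Of 16851 genes tested, 677 differed between T5 and T1 at an adjusted p under 0.05 (4.02%). There were 208 genes higher in T5 (1.23%), with a median log2 fold change of 0.62, and 469 lower (2.78%), with a median of -0.97, while the median over all genes was -0.01. Of all genes tested 8231 were higher and 8620 lower, and 2210 and 2142 of these had an unadjusted p under 0.05 in edgeR. In 576 of the 677 the T5 and T1 libraries did not overlap at all, against 2053 of all genes tested (12.2%). The calls came mostly from T1 replicates 2 to 4. For the genes called higher, T5 lay a median of 0.32 above T1 replicate 1 and 0.71 above T1 replicates 2 to 4 in mean log2 CPM. For those called lower it lay 0.56 below replicate 1 and 1.11 below the others. With a term in the model for title numbers of 28 and above, which T3 replicate 4 also has, no gene was called (lowest adjusted p 0.329, with 1810 genes at an unadjusted p under 0.05). All 677 fold changes kept their sign, with medians of 0.28 and -0.56. Without those 4 libraries T1 is a single library, assumed to vary like the other groups. The medians were then 0.34 and -0.52, and 657 of the 677 were tested there and kept their sign. Kdr, also among the 677, was tested there and changed sign (0.090). All 677 were chosen with T1 replicate 1 and these T5 libraries in the fit, so kept signs are not a separate test. Leaving out 1 library at a time gave 3169 calls without T1 replicate 1, 0 without T1 replicate 2, T1 replicate 3 or T5 replicate 3, and 1 without T5 replicate 2. In T1 replicates 2 to 4 the title number and the first day of DSS cannot be told apart. T1 replicate 1 has a low number, and T3 replicate 4 a high one without belonging to T1. T3 replicate 4 lay below the mean of T3 replicates 1 to 3 in 97.6% of the 208 genes called higher. It lay above that mean in 90.8% of the 469 called lower, against 45% below and 55% above over all genes. The value of T1 replicate 1, or the difference against it alone, is given beside many of the results below.

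**Figure D1:**
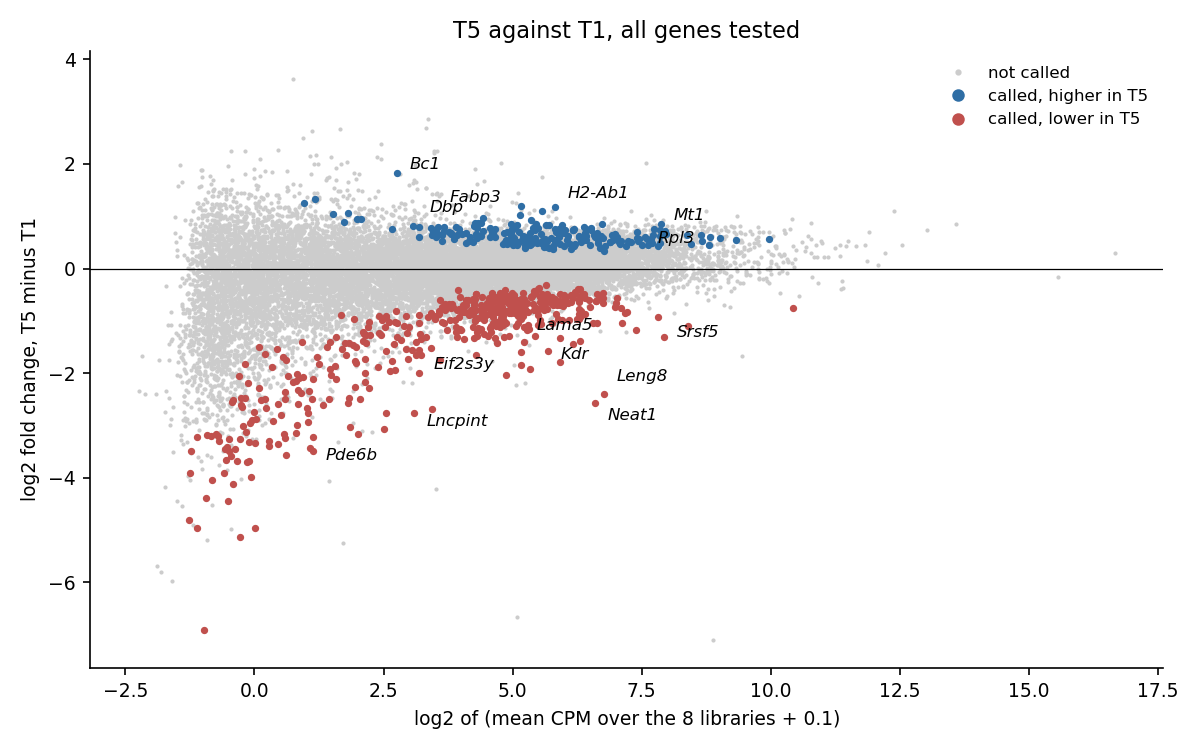
Log2 fold change of T5 over T1 (vertical axis) against mean level over the 8 libraries (horizontal axis, log2 of CPM plus 0.1) for the 16851 genes tested, 1 point per gene, with called genes in colour. The 208 genes called higher lie mostly between 0 and 1, and the 469 called lower reach far larger changes, the largest among genes of low level.

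Exon length, counted over all annotated exons of a gene merged, went with the direction of the difference. Protein-coding genes called higher had a median exon length of 2321 bases and those called lower 8426, against 4463 for genes not called. With protein-coding genes split into 5 equal bins of exon length, 114 in the shortest bin were called higher and 12 lower, and in the longest bin 2 and 205. T5 exceeded the mean of T1 replicates 2 to 4 by a median log2 ratio of 0.40 in the shortest bin and was below it by -0.28 in the longest, whereas the values against T1 replicate 1 were 0.12 and -0.01. The part of exon length in the single-gene results below was examined only by removing its trend from every library, which left 290 genes called (66 higher and 224 lower), among them 18 of the 58 called genes named below. Values stand beside many of those that lost the call. Also lost, without a value there, were Nrp1 (-0.51), Hspg2 (-0.92), Col4a3 (-0.84), Col4a4 (-0.77), Fbn1 (-0.70), Srrm2 (-0.55), Creb3l2 (-0.47) and Slc39a14 (-0.75). Of those called higher, Oas1c (0.85), Tpi1 (0.42) and Pcna (0.41) lost it. So did Rpl30 (0.65), Rpsa (0.61), Rpl13 (0.55), Rpl3 (0.53), Ndufb8 (0.67), Mrpl22 (0.23) and Mrps16 (0.66).

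**Figure D2:**
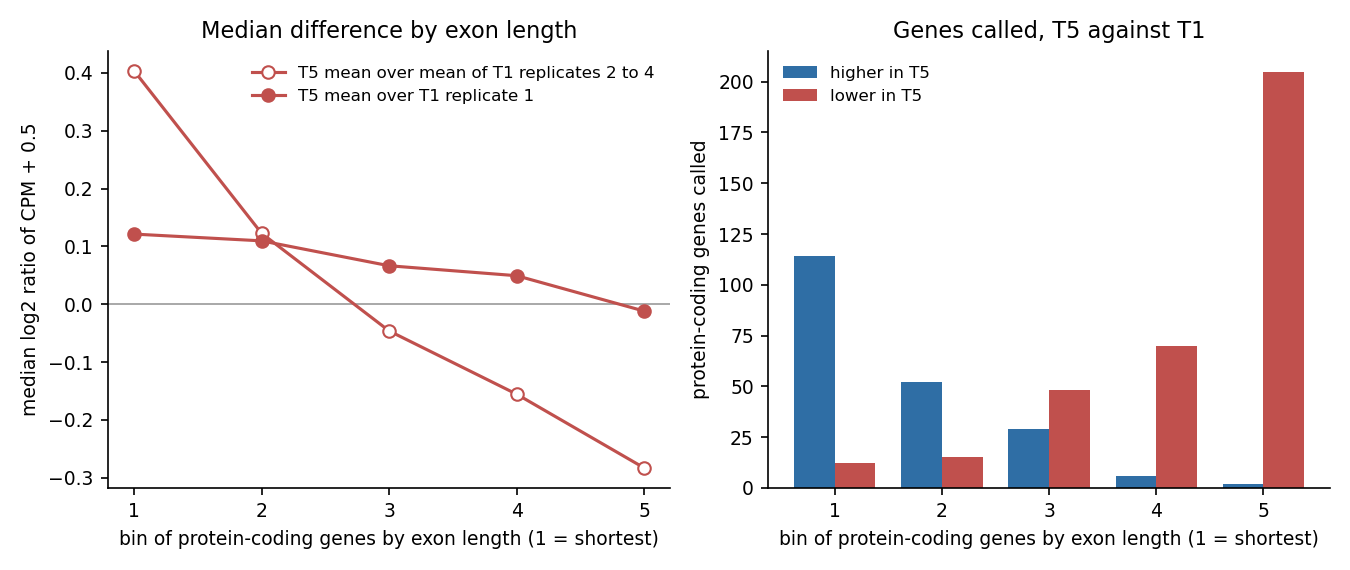
Left, the median log2 ratio (CPM plus 0.5) of the T5 mean to T1 replicate 1 (filled circles) and to the mean of T1 replicates 2 to 4 (open circles) in 5 bins of protein-coding genes by exon length. Right, bars count the genes called in each bin; genes higher in T5 fall from 114 to 2 and genes lower in T5 rise from 12 to 205 with length.

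The 12 largest rises among called, named genes whose libraries did not overlap were Bc1, Fabp3, H2-Ab1, Oas1c, H2-Eb1, Dbp, Pxmp2, Bdh2, Tesc, Mrps18c, S100a11 and Mt1. Bc1, a short cytoplasmic RNA known from neurons (chr7:144914470-144914637, GRCm38), had 4.29, 3.18, 1.55 and 2.82 CPM in T1 replicates 1 to 4 and 8.26, 10.4, 13.6 and 9.6 in T5. All 4 T5 libraries were above all T1 libraries, and the log2 fold change was 1.82 ± 0.33 (SE, adjusted p = 0.0189). Fabp3, a fatty acid carrier of oxidative tissues, had 28.7, 30.8, 11.1 and 16.1 CPM in T1 and 65.2, 46.1, 43.6 and 42.7 in T5, a 2.28-fold rise (log2 1.19 ± 0.31, adjusted p = 0.0442). Bdh2, a dehydrogenase of ketone and siderophore metabolism, rose by 0.92 ± 0.20 and Pxmp2, a channel of the peroxisome membrane, by 0.94 ± 0.26. Among the rest, S100a11 (a calcium-binding protein) rose by 0.86 ± 0.19, Tesc (a calcium-binding regulator of sodium-proton exchange) by 0.88 ± 0.18, Mrps18c (a mitochondrial ribosomal protein) by 0.87 ± 0.21 and Oas1c (of the oligoadenylate synthetase family) by 1.05 ± 0.28. The choice of genes without overlap fixes the direction against T1 replicate 1; the size of that difference ran from 0.48 (Mrps18c) to 1.73 (Dbp). With the exon length trend removed only H2-Ab1 and Bdh2 of the 12 stayed called. Bc1 went to 0.93, Fabp3 to 0.63, Pxmp2 to 0.49, Tesc to 0.54, Mrps18c to 0.39 and S100a11 to 0.12 (adjusted p 0.0695 to 0.839).

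Falls were larger than rises. Neat1, the long non-coding RNA that builds nuclear paraspeckles (chr19:5824708-5845478), had 48.1, 182, 205 and 224 CPM in T1 and 26.6, 15.7, 33.2 and 35.2 in T5 (log2 fold change -2.57 ± 0.53, adjusted p = 0.0239). T1 replicate 1 stood far below the other T1 libraries yet above all 4 T5 libraries. Leng8, a nuclear protein linked to messenger RNA processing, showed the same order with 61.3, 229, 261 and 184 CPM in T1 and 39.3, 19.7, 35.5 and 45.3 in T5 (-2.39 ± 0.46). Lncpint, a p53-regulated long non-coding RNA, had 6.43, 14.9, 15.6 and 21.6 CPM in T1 and 2.19, 1.73, 1.49 and 3.14 in T5 (-2.77 ± 0.49). Pde6b, a phosphodiesterase of photoreceptors, fell by 3.49 ± 0.66 from low levels (1.73 to 8.56 to 0.0709 to 0.640 CPM). Rpgrip1, a protein of the photoreceptor cilium (-3.29), and Col7a1, the anchoring fibril collagen (-3.16), were near or below 1 CPM in some T1 libraries. The remaining 6 were Phxr4 (-2.57), Btnl9 (-2.50), the centriole gene Ccdc78 (-2.03), Tspoap1 (-2.03), the galectin Lgals4 (-1.96) and the sorting nexin Snx29 (-1.88). By the same choice all 12 lay below T1 replicate 1, with differences of -2.33 (Pde6b) to -0.45 (Tspoap1). With the length trend removed 8 of the 12 stayed called, and Rpgrip1, Col7a1, Btnl9 and Ccdc78 did not (adjusted p 0.0508 to 0.0808).

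**Figure D3:**
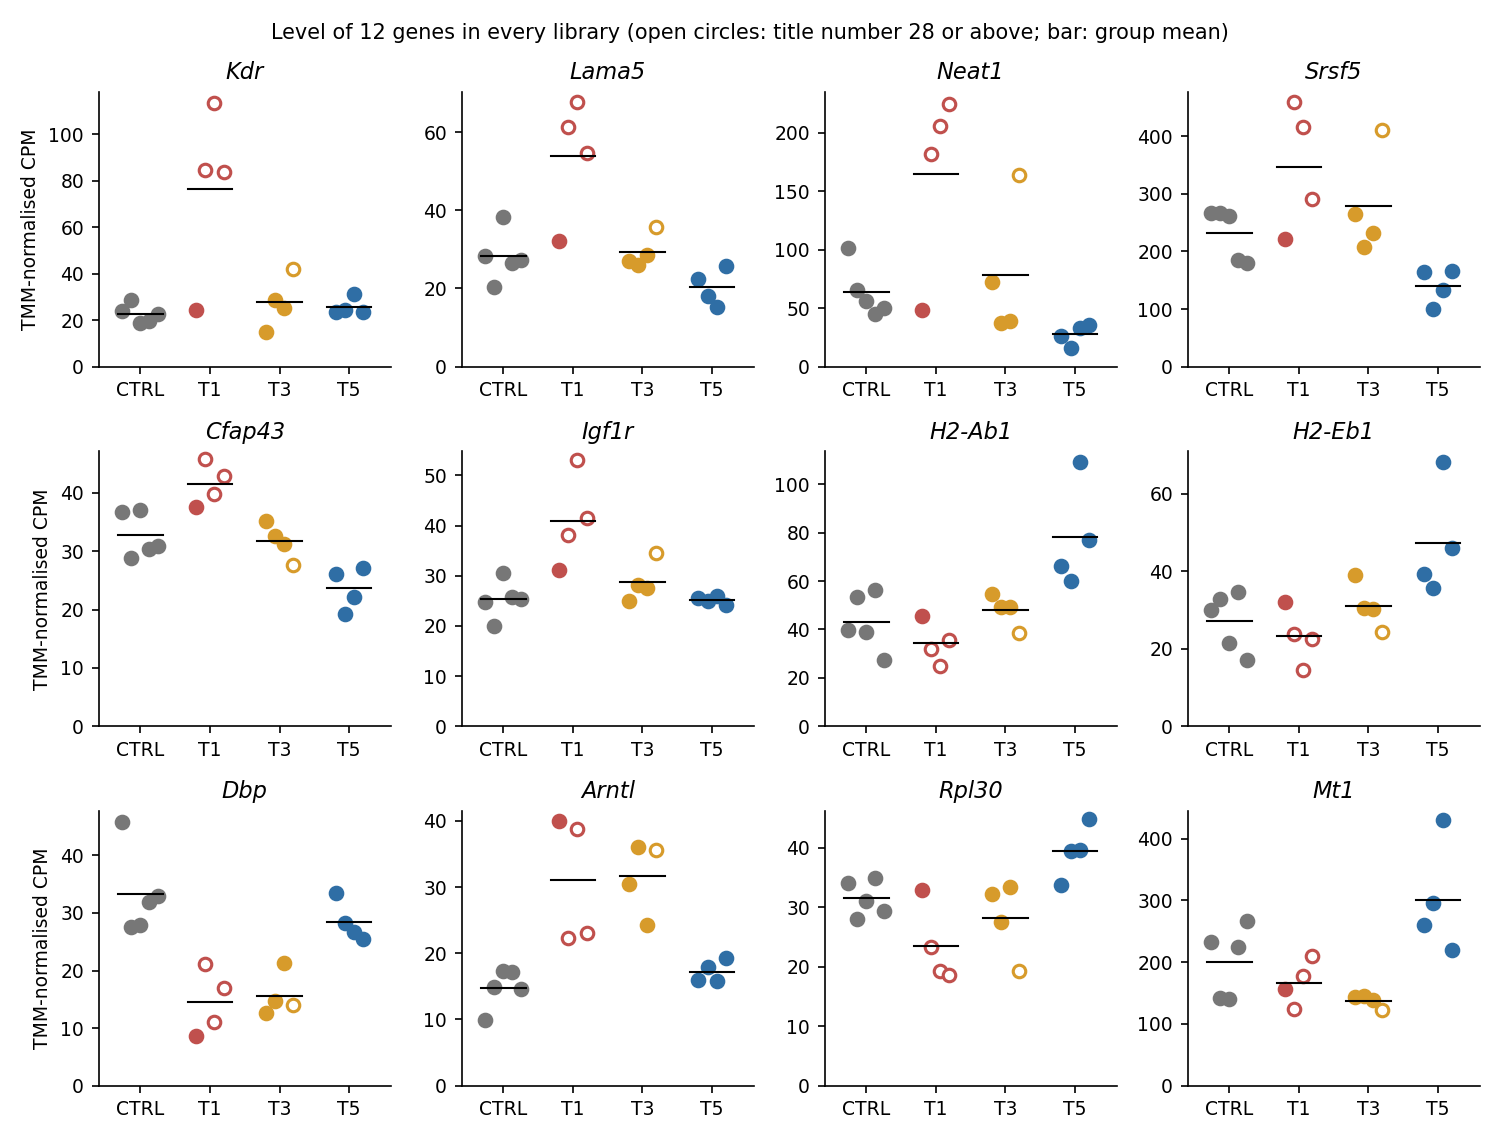
TMM-normalised CPM (vertical axes, from 0) of 12 genes in all 17 libraries by group, 1 circle per library, open where the title number is 28 or above, with a bar at each group mean. For Kdr T1 replicate 1 lies among the T5 and CTRL libraries, whereas for each of the other genes shown all 4 T1 libraries lie apart from T5.

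MHC class II genes were higher after the return to water. These molecules carry peptides to CD4 T cells, are made mainly by macrophages, dendritic cells and B cells, and pair an alpha chain with a beta chain. H2-Aa and H2-Ab1 encode both chains of the A molecule and H2-Eb1 the beta chain of the E molecule. Their transcription depends on a shared promoter module, of which the Y box is bound by NF-Y. The RefSeq promoter table (GRCm38.p6) holds windows of 300 bases, 250 before the start, for H2-Aa and H2-Eb1. They are shown because both genes moved together and both hold the Y box letters CTGATTGG, in capitals, on the strand of the gene. It starts 51 bases before the start of H2-Aa (chr17:34287774-34288073, minus strand) and 62 before that of H2-Eb1 (chr17:34305617-34305916, plus strand). On either strand these letters occur in 4.10% of all 32851 windows of that length, and a match is a description, not a measured site.
H2-Aa: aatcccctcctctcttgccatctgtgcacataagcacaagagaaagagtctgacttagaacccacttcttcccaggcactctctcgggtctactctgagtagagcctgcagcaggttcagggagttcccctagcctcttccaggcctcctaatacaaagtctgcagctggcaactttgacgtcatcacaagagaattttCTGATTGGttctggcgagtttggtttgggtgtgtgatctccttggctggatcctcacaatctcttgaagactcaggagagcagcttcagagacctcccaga
H2-Eb1: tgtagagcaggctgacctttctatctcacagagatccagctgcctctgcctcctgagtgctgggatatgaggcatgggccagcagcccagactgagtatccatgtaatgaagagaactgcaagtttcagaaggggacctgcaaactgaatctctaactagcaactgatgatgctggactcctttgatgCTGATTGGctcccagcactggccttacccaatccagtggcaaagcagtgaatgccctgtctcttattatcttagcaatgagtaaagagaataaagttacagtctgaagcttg

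H2-Ab1 had 45.5, 32, 24.7 and 35.8 CPM in T1 replicates 1 to 4 and 66.4, 60.1, 109 and 77 in T5, a 2.27-fold rise (log2 1.18 ± 0.23, adjusted p = 0.0198). All 4 T5 libraries were above all T1 libraries. H2-Eb1 had 32, 23.8, 14.6 and 22.5 CPM in T1 and 39.2, 35.6, 68.3 and 46.1 in T5 (1.03 ± 0.26, adjusted p = 0.0412), again without overlap. H2-Aa had 48.8, 29.9, 18.5 and 24.6 CPM in T1 and 62.4, 45.3, 74.7 and 76.5 in T5 (1.09 ± 0.28, adjusted p = 0.0406), and here T1 replicate 1 reached above the lowest T5 library. Set against T1 replicate 1 alone the differences were 0.80, 0.58 and 0.43. With the length trend removed H2-Ab1 stayed called, while H2-Eb1 was 0.78 (adjusted p = 0.0883) and H2-Aa 1.07 (adjusted p = 0.0656). In the list of interferon gamma and antigen presentation genes these 3 were the only calls among 31 tested (9.68%, against 4.02% of all genes). Of the 31, 23 were higher and 8 lower, with a median of 0.39. The light chain of class I molecules, B2m, was 0.57 higher without passing the test (adjusted p = 0.0539). Relative to CTRL, which both groups share, the same fit gave H2-Ab1 -0.33 in T1 and 0.86 in T5, H2-Eb1 -0.23 and 0.80, and H2-Aa -0.26 and 0.84, none of them called. Border macrophage markers (12 tested, 5 higher and 7 lower, median -0.17), monocyte and dendritic cell markers (10 tested, 4 and 6, median -0.06) and lymphocyte markers (5 of 13 tested, 4 and 1, median 0.69) gave no call, with medians of 0.30, 0.53 and 1.10 against T1 replicate 1 alone, and their part in the class II rise was not tested.

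In the type I interferon list edgeR called 0 of the 23 genes tested, although Oas1c, outside that list, was called. At an unadjusted p under 0.05 were 5, all higher in T5, against 2210 higher and 2142 lower among all 16851 genes. Of the 23, 17 were higher and 6 lower in T5 with a median of 0.16. Ifit1, an RNA-binding antiviral protein, had 3.57, 4.64, 12.6 and 5.28 CPM in T1 and 35.7, 7.72, 18.7 and 6.4 in T5 (1.39 ± 0.55, adjusted p = 0.126), with the highest T5 value in replicate 1. The values of the antiviral tether Bst2 were 31.1 to 113 CPM in T1 and 104 to 214 in T5 (adjusted p = 0.0771), and those of Ifi27l2a 11 to 22.2 and 19.1 to 38.4 (adjusted p = 0.0913).

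Arntl and Dbp were the only genes called among 21 of the circadian clock (9.52%, against 4.02% of all genes), and in opposite directions. In the circadian clock Arntl (BMAL1) with CLOCK activates genes such as Dbp through E boxes, and ROR and REV-ERB proteins act on Arntl through ROR elements, so that Arntl and Dbp peak at different hours. Arntl (chr7:113207465-113314126) had 40, 22.4, 38.9 and 23 CPM in T1 and 15.9, 18, 15.8 and 19.3 in T5, a 1.8-fold fall (log2 -0.85 ± 0.21, adjusted p = 0.0372). T1 replicate 1 was the highest library and all T5 libraries lay within a narrow range below T1. Dbp, a transcription factor of clock output (chr7:45705088-45710203), had 8.67, 21.1, 11.1 and 17 CPM in T1 and 33.5, 28.3, 26.7 and 25.4 in T5, a 1.96-fold rise (0.97 ± 0.24, adjusted p = 0.0387). Here T1 replicate 1 was the lowest library, so both differences were larger against it alone, at -1.20 and 1.73. Relative to CTRL, Arntl was 1.07 in T1 and 0.22 in T5, and Dbp -1.19 and -0.22, none of them called. With the length trend removed Arntl was -0.67 (adjusted p = 0.104) and Dbp 0.85 (adjusted p = 0.0776).

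Most other clock genes lay lower in T5, unlike Dbp. Per3 and Per1, period genes that BMAL1 and CLOCK also activate, lay lower in T5 without passing the test. Per3 had 9.18, 22.4, 20.9 and 22.9 CPM in T1 and 8.95, 11.6, 10.4 and 9.48 in T5 (-0.90 ± 0.36, adjusted p = 0.125), and Per1 7.04, 12.7, 13.7 and 19.9 and 10.5, 7.79, 10.3 and 6.69 (-0.60 ± 0.32, adjusted p = 0.254). Npas2, which can stand in for CLOCK, had 14.1, 26.8, 28.6 and 20 and 16, 11.7, 12.3 and 13.4 CPM (-0.74 ± 0.24, adjusted p = 0.0739). For these 3 genes T1 replicate 1 lay inside the T5 range. Against that library alone Per3 was 0.15, Per1 0.34 and Npas2 -0.06. With the term for title numbers they were 0.13, 0.22 and -0.20. Of the 21 genes 5 were higher and 16 lower with a median of -0.12, which turned to 0.32 against T1 replicate 1 alone and 0.13 with the term for title numbers.

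For Arntl the RefSeq table holds a pair of windows, and the downstream one is shown because it carries the letters TAGGTCA, the core of a ROR element, in capitals (chr7:113207261-113207560, plus strand). This match begins 30 bases after the start, and 2.61% of all windows hold these letters on either strand. The window of Dbp holds no E box in the letters CACGTG, which occur in 7.15% of windows.
Arntl: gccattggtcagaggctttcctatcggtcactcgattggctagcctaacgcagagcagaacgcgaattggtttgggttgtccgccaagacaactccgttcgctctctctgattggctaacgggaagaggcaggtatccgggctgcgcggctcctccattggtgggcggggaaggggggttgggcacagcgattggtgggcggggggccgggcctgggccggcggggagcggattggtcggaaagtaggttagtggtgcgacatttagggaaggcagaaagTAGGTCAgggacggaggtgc

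Kdr and Nrp1, a pair of VEGF receptors on endothelium, fell in T5 against T1 as a group, with T1 replicate 1 at the level of T5. Kdr, the main signalling receptor for VEGF-A (chr5:75932827-75978458), had 24.5, 84.5, 113 and 83.9 CPM in T1 and 23.7, 24.3, 31.3 and 23.5 in T5 (log2 fold change -1.58 ± 0.36, adjusted p = 0.0308). The first T1 library sat inside the T5 range and the other 3 stood far above it. Against replicate 1 alone the difference turned to 0.090, and in CTRL Kdr had 18.8 to 28.6 CPM. Nrp1, a co-receptor for VEGF and semaphorins, had 66.1, 113, 134 and 91.2 CPM in T1 and 54.8, 61.2, 66.4 and 49.8 in T5 (-0.80 ± 0.21, adjusted p = 0.0416), likewise with replicate 1 in the T5 range. Kdr was the only call among 22 endothelial markers (4.55%, against 4.02% of all genes), of which 21 were lower (median -0.87). Plvap, the protein of the fenestral diaphragm, had 33, 65.4, 123 and 84.8 CPM in T1 and 28.7, 31.7, 58.4 and 28.3 in T5 (-1.06 ± 0.36, adjusted p = 0.0837), and without the 4 libraries of high title number it turned to 0.18. Against T1 replicate 1 alone the median of the list was 0.070. Esm1, which marks endothelial tip cells, was -1.26 (adjusted p = 0.0555), Adgrl4 -1.12 (0.105) and the junction protein Pecam1 -0.98 (0.182), and against T1 replicate 1 alone these were -0.17, -0.33 and 0.069. Cdh5, the cadherin of endothelial junctions, had 2.86 to 6.28 CPM in T1 and 1.34 to 7.73 in T5 (adjusted p = 0.892), and the claudin Cldn5 6.68 to 21.9 and 7.21 to 45.6 (adjusted p = 0.843).

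Among 14 genes of the VEGF and angiopoietin axis Kdr and Nrp1 were called (14.3%, against 4.02% of all genes). Of the 14, 11 were lower and the median was -0.75. Of the ligands, Vegfc had 5.99 to 8.47 CPM in T1 and 3.26 to 5.29 in T5 without overlap (-0.77 ± 0.28, adjusted p = 0.102), and Vegfb had 58.3 to 79.1 and 74.3 to 104 (0.39 ± 0.14, adjusted p = 0.0925). With the term for title numbers the median of the endothelial list was 0.20 and that of the VEGF and angiopoietin list 0.12, the opposite sign in both.

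Basement membrane genes gave 6 calls among 21 tested (28.6%, against 4.02% of all genes), all lower in T5. This sheet of laminin, type IV collagen and perlecan underlies both epithelium and endothelium. Lama5, the alpha 5 chain of laminins (chr2:180176373-180225859), had 32.2, 61.4, 67.6 and 54.5 CPM in T1 and 22.5, 18.1, 15.2 and 25.6 in T5, a 2.65-fold fall (log2 -1.41 ± 0.23, adjusted p = 0.0189). No T5 library reached T1 replicate 1, which was itself the lowest of T1, and the difference against it alone was -0.65. Hspg2, which encodes perlecan, had 11.1, 22.9, 32.6 and 28.8 CPM in T1 and 10.9, 6.53, 8.87 and 11 in T5 (-1.35 ± 0.30, adjusted p = 0.0246), with replicate 1 just above the highest T5 library. Col4a3 and Col4a4, which encode chains of the collagen network of filtering membranes, fell by 1.15 ± 0.28 and 1.11 ± 0.27, and T1 replicate 1 lay in the T5 range for both. In all, 20 of the 21 members were lower, with a median of -0.84, which became 0.24 with the term for title numbers. Interstitial matrix genes gave 1 call among 26 (3.85%, against 4.02% of all genes), the microfibril protein Fbn1. It had 27.8, 52.6, 38 and 37.1 CPM in T1 and 21.4, 17.5, 16.1 and 20.2 in T5 (-1.05 ± 0.22, adjusted p = 0.0229). Timp1, an inhibitor of matrix metalloproteinases, had 1.02, 1.34, 0.842 and 0.364 CPM in T1 and 7.94, 2.52, 2.41 and 1.57 in T5 (1.99 ± 0.58, adjusted p = 0.0586).

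Splicing regulators gave 6 calls among 27 tested (22.2%, against 4.02% of all genes), all lower in T5. Of the 27, 24 were lower (median -0.36). Srsf5, a serine and arginine rich splicing factor (chr12:80945504-80950507), had 222, 458, 416 and 291 CPM in T1 and 164, 99.9, 133 and 166 in T5 (log2 fold change -1.30 ± 0.25, adjusted p = 0.0189). The libraries did not overlap, and the difference against T1 replicate 1 alone was -0.64. Pnisr, a nuclear speckle protein, had 76.1, 127, 127 and 124 CPM in T1 and 41, 33.1, 39.6 and 59.4 in T5 (-1.39 ± 0.27, adjusted p = 0.0205). Srrm2, a scaffold of nuclear speckles, fell by 0.93 ± 0.18 with T1 replicate 1 inside the T5 range, and Luc7l, of the U1 small nuclear ribonucleoprotein, by 0.77 ± 0.16 without overlap. With the term for title numbers the list median was -0.20. Beside Neat1 and Lncpint, Malat1, the abundant RNA of nuclear speckles, had 574, 965, 1291 and 1415 CPM in T1 and 315, 324, 289 and 407 in T5 and did not pass the test (-1.67 ± 0.47, adjusted p = 0.0561). Gas5, a host of small nucleolar RNAs, went the other way with 52.7 to 75 CPM in T1 and 74.5 to 96.4 in T5 (0.50 ± 0.14, adjusted p = 0.0527). Of the 11 nuclear long non-coding RNAs tested 9 were lower, with a median of -1.67. This median was -0.52 against T1 replicate 1 alone and -0.36 with the term for title numbers.

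Motile cilium genes also gave 6 calls, all lower in T5, among 28 tested (21.4%, against 4.02% of all genes). Motile cilia beat by axonemal dyneins, and the tissue carries cilia on its epithelium as well as any adhering ependyma. Cfap43, a protein tethering inner dyneins (chr19:47736857-47919287), had 37.6, 45.8, 39.8 and 43 CPM in T1 and 26.1, 19.3, 22.1 and 27.2 in T5, a 1.75-fold fall (log2 -0.81 ± 0.13, adjusted p = 0.0189). T1 replicate 1 sat close to the other T1 libraries, so the difference against it alone, -0.65, and with the term for title numbers, -0.84, stayed near that of the whole group. Its partner Cfap44 had 57.9, 91.6, 71.6 and 73.8 CPM in T1 and 46.9, 33, 31.4 and 50.3 in T5 (-0.87 ± 0.15, adjusted p = 0.0189). Cfap54, of the central apparatus, fell by 0.57 ± 0.11 without overlap, and the outer arm dynein Dnah9 by 0.79 ± 0.18 with T1 replicate 1 among the T5 values. With the length trend removed Cfap54 was -0.18 (adjusted p = 0.514) and Dnah9 -0.36 (adjusted p = 0.205). Hydin, of the central apparatus, had 3.78, 12.8, 10.8 and 19.8 CPM in T1 and 2.5, 4.88, 6.46 and 3.84 in T5, with replicate 1 in the T5 range (-1.42 ± 0.42, adjusted p = 0.0609). Over the list 19 genes were lower and 9 higher (median -0.24), and the medians with T1 replicate 1 alone and with the term for title numbers were -0.02 and -0.25. Ependymal cell markers, some of which stand in the cilium list too, were split evenly with 6 higher and 6 lower (median -0.08), and Pifo, a ciliary protein, had 45.7 to 105 CPM in T1 and 98.1 to 124 in T5 (adjusted p = 0.107).

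Genes of translation and of mitochondrial respiration lay higher in T5 almost without exception, though few passed the test singly. All 47 cytoplasmic ribosomal protein genes tested were higher, 6 were called (12.8%, against 4.02% of all genes), and the median was 0.69. Rpl30 had 32.9, 23.3, 19.3 and 18.6 CPM in T1 and 33.7, 39.4, 39.7 and 44.8 in T5 (log2 fold change 0.75 ± 0.18, adjusted p = 0.0364), and T1 replicate 1 lay just below the lowest T5 library. The others named by the smallest p were Rpsa (0.69 ± 0.17), Rpl13 (0.70 ± 0.18) and Rpl3 (0.61 ± 0.16), each with replicate 1 between the other T1 libraries and T5. All 34 mitochondrial ribosomal protein genes were higher with 2 called (5.88%), Mrpl22 (0.74 ± 0.19) and Mrps16 (0.77 ± 0.20), and a median of 0.45. All 40 nuclear genes of the respiratory chain were higher with a median of 0.63 and 2.5% called. The complex I subunit Ndufb8, with 231, 157, 126 and 120.2 CPM in T1 and 278, 237, 249 and 308 in T5, was the only one called (0.76 ± 0.21, adjusted p = 0.0499). Next came Ndufa10 (adjusted p = 0.0529), Ndufs3 (0.053) and the cytochrome oxidase subunit Cox5a (0.0546). In the mitochondrial genome mt-Nd4, a complex I subunit, had 1476, 863, 807 and 645 CPM in T1 and 1402, 1548, 1545 and 1597 in T5 (0.68 ± 0.22, adjusted p = 0.067), with T1 replicate 1 inside the T5 range. With the term for title numbers the medians were 0.10 for cytoplasmic ribosomal proteins, 0.06 for mitochondrial ones, 0.07 for the nuclear respiratory chain and -0.01 for the 8 mitochondrially encoded genes tested. With the exon length trend removed these medians were 0.40, 0.31, 0.33 and 0.02. Exon length joins all annotated exons of a gene and can exceed that of a single transcript. The part of transcript length itself was not tested.

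Of 24 genes of glycolysis and hypoxia 16 were higher (median 0.32) and 1 was called (4.17%, against 4.02% of all genes). The median was 0.18 against T1 replicate 1 alone and 0.07 with the term for title numbers. Tpi1, triosephosphate isomerase, had 643, 495, 459.7 and 497 CPM in T1 and 783, 770.3, 709 and 800.5 in T5 (0.55 ± 0.14, adjusted p = 0.0384). Gapdh (0.59, adjusted p = 0.0594) and Aldoa (0.46, adjusted p = 0.0618) did not overlap between groups either, without passing the test. Pcna, the sliding clamp of DNA replication, was the only call among 18 cell cycle genes (5.56%). It had 32.6, 26.2, 22.5 and 20.4 CPM in T1 and 36.9, 35.1, 39.6 and 41.9 in T5 (0.60 ± 0.15, adjusted p = 0.0428). Of the 18 genes 12 were lower and the median was -0.15 (0.71 against T1 replicate 1 alone).

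**Figure D4:**
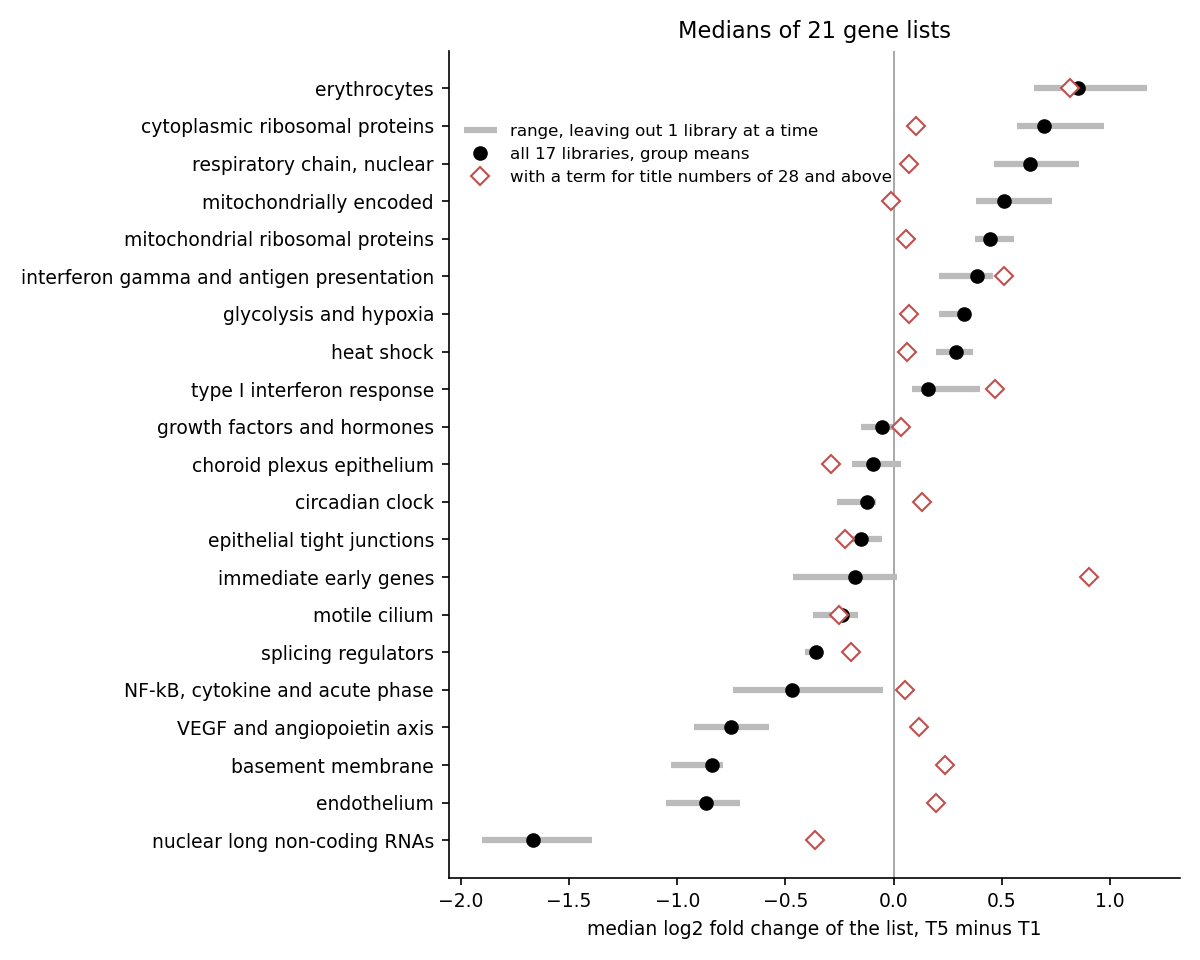
Median log2 fold change, T5 minus T1, of 21 gene lists (black circles), its range when each of the 17 libraries is left out in turn (grey bars) and its value with a term for title numbers of 28 and above (open diamonds). The medians of the antigen presentation, erythrocyte, cilium and splicing lists keep their sign with the term, and those of the endothelial, VEGF and basement membrane lists change it.

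Among 23 growth factor and hormone genes 3 were called, all of them receptors of the insulin family of hormones and all lower in T5. Igf1r, the receptor of insulin-like growth factor 1, had 31.1, 38.1, 53.1 and 41.4 CPM in T1 and 25.5, 25, 26 and 24.1 in T5 (log2 fold change -0.70 ± 0.15, adjusted p = 0.0245), and the T5 libraries were tightly grouped below T1 replicate 1. Igf2r, which clears insulin-like growth factor 2, had 69.4, 136, 115 and 77.9 CPM in T1 and 50.3, 42, 47.5 and 65.2 in T5 (-0.96 ± 0.23, adjusted p = 0.035). The insulin receptor Insr had 30.5, 45.6, 57.1 and 56 CPM in T1 and 30.5, 22.7, 26 and 31.5 in T5 (-0.77 ± 0.18, adjusted p = 0.0321), with replicate 1 inside the T5 range. Against T1 replicate 1 alone Igf1r was -0.29, Igf2r -0.42 and Insr -0.12. All 3 transcripts are long, and with the length trend removed none stayed called, at -0.27, -0.68 and -0.38 (adjusted p 0.242, 0.0889 and 0.176). Igfbp3, a binding protein of these growth factors, had 36.1, 49, 139 and 68.7 CPM in T1 and 33.7, 31.3, 52.6 and 25.1 in T5 (-1.04 ± 0.41, adjusted p = 0.123) and was 0.0056 against T1 replicate 1 alone. The median of the list was -0.05.

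Of 15 iron handling genes tested 1 was called (6.67%, against 4.02% of all genes), lower. Of 5 metallothionein and zinc genes 1 was called (20%), higher. Slc39a14, which imports zinc and iron and is induced by interleukin 6 in liver, had 66.4, 74.9, 84 and 67.2 CPM in T1 and 27.9, 30.5, 33.7 and 50.1 in T5, a 2.06-fold fall (-1.04 ± 0.23, adjusted p = 0.0245). The first T1 library was close to the rest of T1, and the difference against it alone was -0.89. Mt1, a metal-binding protein induced by zinc and glucocorticoids (chr8:94179082-94180327), had 156, 124, 177 and 210.2 CPM in T1 and 261, 295, 429.5 and 220.4 in T5 (0.85 ± 0.23, adjusted p = 0.0469), and against T1 replicate 1 alone the difference was 0.97. With the length trend removed it was 0.40 (adjusted p = 0.437). Its neighbour Mt2 had 3.67, 2.4, 8.48 and 11.2 CPM in T1 and 5.97, 11.7, 18.8 and 4.59 in T5, which overlap widely (0.68 ± 0.59, adjusted p = 0.525). Mt3, the metallothionein of brain, had 266 to 644 CPM in T1 and 600.4 to 852 in T5 (adjusted p = 0.0809), and against T1 replicate 1 alone the difference was 0.14. For Fth1, the ferritin heavy chain, the values were 2315 to 3296 and 3681 to 7433 CPM without overlap (0.71 ± 0.22, adjusted p = 0.0668).

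In the heat shock list 21 of 24 genes were higher with a median of 0.29. It was 0.09 against T1 replicate 1 alone and 0.06 with the term for title numbers. The calls, 8.33% of the list against 4.02% of all genes, went both ways. Cryab, a small heat shock protein, rose by 0.59 ± 0.16 without overlap (adjusted p = 0.0474), and Hsf1, the transcription factor that drives the response, fell by 0.49 ± 0.12 with T1 replicate 1 in the T5 range. With the length trend removed they were 0.21 and -0.29, neither of them called. Creb3l2, a membrane-bound transcription factor of the secretory pathway, was the only call among 27 genes of endoplasmic reticulum stress (3.70%, against 4.02% of all genes). It had 30.3, 40.4, 42.9 and 33.5 CPM in T1 and 26.2, 21, 21.6 and 24.1 in T5 (-0.67 ± 0.15, adjusted p = 0.0239).

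No NF-kB, cytokine or acute phase gene was called by edgeR. At an unadjusted p under 0.05 were 6, all lower in T5, against 2210 higher and 2142 lower among all 16851 genes. Of 24 tested 22 were lower in T5 (median -0.47), but the median was 0.56 against T1 replicate 1 alone, 0.054 with the term for title numbers and -0.049 without T1 replicate 3. The oncostatin M receptor Osmr had 9.9, 9.37, 26.4 and 10.1 CPM in T1 and 4.69, 5.67, 5.89 and 4.83 in T5 without overlap and just missed the threshold (-1.40 ± 0.39, adjusted p = 0.0502). Nfkb1, a subunit of NF-kB, had 13.6 to 17.8 CPM in T1 and 8.08 to 12.8 in T5, also without overlap (-0.62 ± 0.18, adjusted p = 0.0604). Socs3, a feedback inhibitor of cytokine receptors, had 6.12, 14.9, 28.3 and 9.47 CPM in T1 and 7.99, 6.69, 5.96 and 4.71 in T5 (-1.22 ± 0.38, adjusted p = 0.0667), and Nfkbiz, an inhibitor-like cofactor of NF-kB, 1.43, 5.82, 10.8 and 6.92 and 2.24, 2.52, 1.7 and 3.26 (-1.36 ± 0.49, adjusted p = 0.0914). In both, T1 replicate 1 stood inside or below the T5 range and the other T1 libraries above them. Lcn2, an iron-trapping acute phase protein, had 0.918, 0.204, 49.2 and 0.182 CPM in T1 and 2.5, 1.57, 3.19 and 6.16 in T5, and its mean in T1 rests on replicate 3. Without that library its log2 fold change went from -1.91 to 2.99 (adjusted p = 0.138).

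Immediate early genes, which respond to stimuli within minutes, gave no call among 22 in edgeR. At an unadjusted p under 0.05 were 2, each lower in T5, against 2210 higher and 2142 lower among all 16851 genes. With 6 higher and 16 lower the median was -0.18, but it was 0.73 against T1 replicate 1 alone, 0.90 with the term for title numbers and 0.016 without T5 replicate 4. Fos had 1.94, 5.25, 21.2 and 36 CPM in T1 and 5.17, 10.7, 3.33 and 2.85 in T5 (-1.55 ± 0.86, adjusted p = 0.277). The phosphatase gene Dusp1 had 34.4, 56.6, 60.2 and 128 and 42.3, 36.3, 35.7 and 28.8 (-0.96 ± 0.33, adjusted p = 0.0873), and Zfp36, which destabilises messenger RNA, 8.16, 20.2, 30 and 32.2 and 13.9, 14, 11.8 and 8.32 (-0.92 ± 0.33, adjusted p = 0.0962). T1 replicate 1 was the lowest T1 library in all 3.

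No tight junction gene of the epithelium passed the test in edgeR. Cldn2, a channel-forming claudin, had 368 to 623 CPM in T1 and 459 to 612 in T5, with a log2 fold change of 0.05 ± 0.19. Cldn1 had 287 to 463 and 272 to 385 CPM (-0.24 ± 0.18), Cldn3 28.2 to 44 and 33.5 to 43.6 (0.18 ± 0.20) and Ocln, or occludin, 125 to 209 and 138 to 171 (-0.19 ± 0.17), with adjusted p from 0.442 to 0.919. The scaffold Tjp1 had 24.6 to 44.2 and 20.5 to 33.9 CPM (-0.46 ± 0.33, adjusted p = 0.422). Cgn, cingulin of the junction plaque, had 28.5 to 43.2 and 17.7 to 27.1 CPM without overlap (-0.70 ± 0.21, adjusted p = 0.0632). DESeq2 did call Cgn (adjusted p = 0.0255). The 14 members tested had a median of -0.15, and the 18 epithelial markers, Ttr among them (0.29 ± 0.29, adjusted p = 0.596), one of -0.10 with no call.

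Several measures of cell make-up were set beside these results. All 8 erythrocyte markers were higher in T5 (median 0.85, none called). Their median was 0.21 against T1 replicate 1 alone and 0.82 with the term for title numbers. Hbb-bs, a beta globin, had 746, 233, 464 and 294 CPM in T1 and 1225, 745, 952 and 572 in T5. Hba-a1, an alpha globin, had 88.3 to 196 and 122 to 372 CPM. Reads may be shared among near-identical globin genes. All 12 oligodendrocyte markers were higher (median 0.63), as were 7 of 12 neuron markers (median 0.43) and 6 of 10 astrocyte markers (median 0.34), with no call. These medians rest on single libraries: the oligodendrocyte median was -1.84 without T5 replicate 3 and the neuron median -1.11 without T5 replicate 2. Mural cell (12 tested, median -0.17), fibroblast (15, median 0.16) and microglia markers (10, median 0.38) gave no call, and only 5 of 12 neutrophil markers were tested (median -1.09, and 0.79 without T1 replicate 3). The mural median was 0.11 without T5 replicate 4 and the fibroblast median -0.057 without T5 replicate 1. Their part in the results above was not tested, apart from the brain markers, whose mean as a covariate left all 677 genes called among 2104.

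Of 5 sex-linked genes tested 1 was called (20%, against 4.02% of all genes) and 4 were lower in T5. The Y-linked Eif2s3y, a subunit of a translation initiation factor, had 33.2, 59.9, 73 and 50.1 CPM in T1 and 18.7, 13.5, 16.2 and 22.9 in T5 (log2 fold change -1.60 ± 0.27, adjusted p = 0.0189), and both groups hold the transcript in every library. Kdm5d, a histone demethylase gene on the same chromosome, had 20.1 to 32.1 CPM in T1 and 12.7 to 22.7 in T5 (-0.67 ± 0.19, adjusted p = 0.0563). Uty, another demethylase gene there, had 28 to 55.1 and 29.6 to 43.5 CPM (-0.18 ± 0.19, adjusted p = 0.611). Xist, the X-linked RNA of X inactivation, was low in all 8 libraries, with 0.510, 2.04, 2.72 and 1.55 CPM in T1 and 0.480, 0.236, 0.993 and 0.407 in T5 (-1.69 ± 0.65, adjusted p = 0.114), and T1 replicate 1 was in the T5 range. In CTRL, Eif2s3y had 22.5 to 42.7 CPM.

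Neither group differed from CTRL in any single gene by the same test: 0 genes were called in T1 against CTRL (0%) and 0 in T5 against CTRL, with 3553 (21.1%) and 1320 (7.83%) at an unadjusted p under 0.05, where DESeq2 called 701 and 12. The genes called higher in T5 than in T1 had a median log2 difference from CTRL of -0.45 in T1 and 0.15 in T5, and those called lower 0.56 in T1 and -0.43 in T5. For Kdr the values were 1.75 and 0.18, for Igf1r 0.70 and -0.01, for Rpl30 -0.42 and 0.32, for Srsf5 0.58 and -0.72, and for Cfap43 0.34 and -0.47. Both columns use the same CTRL libraries and are given only side by side.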

How the data were processed

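Per the labels' protocols, whole choroid plexus RNA was reverse transcribed and amplified with a low-input kit, SMART-Seq v4. The authors deposited raw read counts per Ensembl gene in 1 table of 17 libraries. Per the submitters' processing notes, these came from GRCm38 with featureCounts 1.6.4, STAR 2.6.1b and Trimmomatic 0.39 among the tools; the sources used here give no strand or multi-mapping setting. Symbols came from GENCODE M21 (55394 of 55487 identifiers matched, 93 did not).

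Groups followed the time point labels; replicate numbers are accession order. Genes passing filterByExpr (16851) were tested in edgeR 4.0.16 (R 4.3.3): TMM, 1 mean per group, robust quasi-likelihood fit, Benjamini-Hochberg threshold 0.05, common dispersion 0.141. SEs are the log2 fold change over the square root of F and approximate. DESeq2 1.42.0 and limma 3.58.1 served as alternatives. The edgeR script was tested on simulated data. No library was a copy of another (chi-square per gene 27.2 to 80.7 within T1, 37.9 to 63.2 within T5).

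The comparison, 47 gene lists and naming rule were chosen with earlier results of these data known. Named are the 12 largest rises and falls among called genes with a non-predicted symbol, at least 1 CPM and no overlap, up to 4 members of smallest p per list, and 15 barrier, clock and marker genes; 2 cilium genes were not found by symbol. Per1, how many of those 4 were named and the 21 lists plotted were settled after their values were seen. Intervals of counting were not used, since PCR copies count as reads.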

Additional observations from a re-analysis of the deposited data

Results flagged for a closer look

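Within groups of 4, a library counted as far from the others when its gap to the nearest one, as a share of the group's range, exceeded Dixon's 95% critical value. This was so in 17 of 232 groups checked (7.33%), where chance gives about 1 in 20. T1 replicate 1 accounted for 6: Per3 at 9.18 CPM against 20.9 to 22.9, Pnisr at 76.1 CPM against 124 to 127 in the other T1 libraries, Dnah9 at 15.5 against 26.8 to 28.4, Rpl13 at 186 against 107 to 113, Rpl3 at 208 against 128 to 137, and the mitochondrially encoded share at 3.37% against 1.86 to 2.04%. T1 replicate 4 was high for Pde6b (8.56 CPM against 1.74 to 2.73) and Rpgrip1 (5.83 against 0.510 to 1.30). T1 replicate 3 was high for Osmr (26.4 CPM against 9.37 to 10.1) and Lcn2 (49.2 against 0.182 to 0.918).

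In T5, replicate 1 was high for Fabp3 (65.2 CPM against 42.7 to 46.1), Cldn5 (45.6 against 7.21 to 11.3) and Timp1 (7.94 against 1.57 to 2.52). T5 replicate 3 was high for Kdr (31.3 CPM against 23.5 to 24.3), Plvap (58.4 against 28.3 to 31.7) and Fth1 (7433 against 3681 to 4182), and T5 replicate 4 for Tspoap1 (14.1 against 10.6 in each of the others).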

How the results depend on the processing

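The count of 677 genes called (208 higher, 469 lower in T5) became 2158 (1077 and 1081) with DESeq2 and 3730 (2040 and 1690) with limma's voom and quality weights. It became 355 (88 and 267) without the filter on low counts and 42 (1 and 41) with only the T5 and T1 libraries in the fit. A brain marker covariate gave 2104 (1168 and 936). The term for title numbers of 28 and above gave 0 (0 and 0), also together with that covariate, and leaving out those 4 libraries gave 0 (0 and 0). Removing an exon length trend fitted on all genes gave 60 (2 and 58). A robust trend on protein-coding genes, written after that result was seen, gave 290 (66 and 224); both were chosen after seeing the data. RLE factors, upper quartile factors and a minimum of 1 CPM in 4 libraries gave 669, 766 and 759. Leaving out 1 library at a time gave 0 to 3169 genes (0 to 1819 higher, 0 to 1350 lower): 3169 without T1 replicate 1, 0 without T1 replicate 2 or 3, 200 without T1 replicate 4, 22, 1, 0 and 381 without T5 replicates 1 to 4, 2184 without T3 replicate 4, 438 without T3 replicate 1, and 450 and 435 without CTRL replicates 2 and 3. The cause of these changes was not tested. DESeq2 called 701 genes in T1 against CTRL and 12 in T5 against CTRL, where edgeR called 0 in each.

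Of the 58 named genes that were called, Kdr turned to 0.090 without the 4 libraries of high title number. The other 57 kept their direction in each alternative in which they were tested: Rpgrip1 in 28, since the fit of T5 and T1 alone and the 1 CPM minimum removed it, and the rest in 30. These genes were chosen from the same libraries, so kept directions are not a separate test. None of the 58 stayed called with the title number term or without those libraries, 18 did with the robust length trend removed, and all 58 did with DESeq2. DESeq2 also called 27 named genes that the main fit did not, with Plvap, Osmr, Nfkb1, Socs3, Malat1, Dusp1 and Cgn among them. Genes not called in the main fit changed sign as follows. With the title number term Cdh5 was 0.80, Cldn2 -0.17, Cldn3 -0.31, Fos 0.98, Lcn2 1.08, Pecam1 0.24, Tjp1 0.40, Ttr -0.40, Per1 0.22, Per3 0.13 and Zfp36 0.25, and with the brain marker covariate added 0.61, -0.027, -0.19, 0.59, 0.86, 0.20, 0.20, -0.22, 0.21, 0.089 and 0.23. Pifo was -0.055 with the first and Npas2 0.068 with both. Without the 4 libraries those 11 were 0.50, -0.19, -0.19, 1.52, 1.88, 0.069, 0.15, -0.37, 0.34, 0.15 and 0.57, with Plvap at 0.18, Dusp1 0.075, Nfkbiz 0.78, Socs3 0.068, Hydin 0.25, Igfbp3 0.0056 and Xist 0.072. With the robust length trend removed Cldn2 was -0.020, Cldn3 -0.24, Cldn5 -0.12, Ttr -0.12, Mt2 -0.086 and Uty 0.073 (0.049 with the other length trend). Lcn2 was 0.20 with voom. Leaving out 1 library at a time, Lcn2 ran from -2.37 to 2.99 (without T1 replicate 3), Cldn2 from -0.10 (without T1 replicate 4) through -0.013 (without T5 replicate 1) to 0.15, Cldn5 from -0.68 (without T5 replicate 1) to 0.58, and Cdh5 from -0.73 to 0.11 (without T5 replicate 4). No paired analysis was possible because the labels give no replicate number or pairing shared between groups. Thinning moved the difference in detected genes from -3582 to -3527. Genes near or below 1 CPM, such as Rpgrip1 and Col7a1, rest on few reads in the shallower libraries.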

Other observations

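Further gene groups were described by their counts, and apart from Mt1 in the glucocorticoid response list none of them held a call between T5 and T1. Of 26 transporters and enzymes of cerebrospinal fluid secretion 9 were higher and 17 lower in T5 (median log2 fold change -0.15), of 21 organic solute transporters 7 and 14 (median -0.15), and of 24 genes of cholesterol synthesis 16 and 8 (median 0.07). Of 14 complement genes tested 8 were higher and 6 lower (median 0.08), of 19 Wnt and beta-catenin targets 11 and 8 (median 0.06), and of 8 leukocyte adhesion molecules 4 and 4 (median -0.04, and 0.77 against T1 replicate 1 alone). Among 17 junction genes of endothelium 12 were lower (median -0.19), and among 10 genes of caveolae and fenestrae 6 were higher (median 0.05). The glucocorticoid response list held 1 call among 18 (5.56%, against 4.02% of all genes), Mt1, and a median of -0.04.

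T3 replicate 4, the only library outside T1 with a title number of 28 or above, lay below the mean of T3 replicates 1 to 3 in 97.6% of the 208 genes called higher in T5 than in T1, and above it in 90.8% of the 469 called lower. Over all genes tested it lay below in 45.0% and above in 55.0%.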
